A study of Mus musculus with 10 samples.

Results

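The numbered Zfp genes are mouse genes whose symbol is Zfp followed by a number, most of which encode zinc finger proteins. Zfp36, an mRNA decay factor with another kind of finger, was left out. On these arrays 304 such genes had a probe set that named 1 gene. For each gene the probe set with the highest mean log2(signal + 16) over all 10 arrays was taken, and 256 genes lay over 4.82, the level that 40% of the array's probe sets, controls aside, did not reach. Those 256 were tested among 12580 genes in all. The choice of genes used the level over both groups together and not the difference between them.

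The typical zinc finger of this family, the C2H2 type, is a short loop folded around a zinc ion by a pair of cysteines and a pair of histidines, and tandem arrays of such fingers read DNA. Many of the proteins also carry a KRAB domain, which recruits the corepressor Trim28 and with it the H3K9 methyltransferase Setdb1, and these repressors are best known for silencing retroelements and keeping genomic imprints. Other numbered Zfp proteins are activators, parts of corepressor complexes, RNA-binding proteins or ubiquitin ligases.

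The series compared bone marrow stem cell-enriched cells without and with Mll, the product of Kmt2a, which methylates histone H3 at lysine 4. The Mll-deficient group was 5 Mx1-cre;Mll F/F mice and the control group was 5 Mll F/F mice, so controls had the floxed alleles but no cre, and effects of cre and of Mll loss cannot be told apart. The mice were 8-week-old females of a B6.SJL-Ptprca Pep3b/BoyJ background. Both groups received 3 doses of pI:pC, a double-stranded RNA mimic, 48 hours apart (10 µg per gram plus 50 µg), which raises interferon and so drives the Mx1 promoter in any cell that responds to it. LSK/CD48- cells were sorted on day 6, and amplified RNA of 1500 to 10000 cells was hybridised, 1 sample to 1 Affymetrix mouse genome array.

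The 10 arrays had the same scaled mean signal. Pearson correlations between arrays over the 256 Zfp genes ranged from 0.848 to 0.957, and control replicate 5 had the lowest mean correlation with its own group, at 0.904, against 0.928 to 0.939 for the other controls. The 3' to middle ratio of Gapdh and Actb, a measure of RNA quality, lay between 2.37 and 3.87 (log2) in Mll-deficient samples and between 1.73 and 5.24 in controls, the highest being control replicate 5. The brighter Kmt2a probe set read 216 ± 97.2 in Mll-deficient samples and 260.2 ± 85.8 in controls (SD, n = 5 each; limma adjusted p = 0.634 over all probe sets). Whether it lies in the deleted part was not analysed here, so it does not check the labels. All 8 stem cell markers with a probe set passed the level filter, and so did all 9 granulocyte and monocyte markers, with S100a8 at 25895 ± 5032 in Mll-deficient samples and 23795 ± 8157 in controls. The T cell genes Cd3e, Cd3g and Cd4 lay below the filter, while Cd8a and Ncr1 of the T and natural killer cell markers lay above it at low signals. All 5 B cell markers with a probe set lay above the filter. Of these, Vpreb1 read 1751 ± 1111 in Mll-deficient samples and 2283 ± 1463 in controls. Some cell type markers moved with genotype. Of 18 erythroid markers 13 rose and 0 fell, against 3.76% and 1.76% of all tested genes. Their summed signal was 19630 to 22455 in Mll-deficient samples and 4821 to 10148 in controls. Of the tested granulocyte and monocyte, megakaryocyte, B cell, T and natural killer cell, and stroma and endothelium markers, 0 passed in limma. Of the 8 stem cell markers 2 fell (Hlf and Mecom) and 0 rose, with summed signals of 921 to 2698 in Mll-deficient samples and 1776 to 5257 in controls. The part of these shifts in the results on Zfp genes was not tested. In a sorted population, fewer cells of a type and less RNA per cell cannot be told apart.

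Few numbered Zfp genes passed the test. In limma, with Benjamini-Hochberg adjustment over all 12580 genes and a threshold of 0.05, 5 of the 256 passed (1.95%), while 5.52% of all tested genes did. Zfp593 and Zfp771 rose in Mll-deficient cells, 2 genes against a background of 3.76% of all genes that rose. Zfp467, Zfp217 and Zfp597 fell, 3 genes (1.17%) against a background of 1.76%. A further 30 had an unadjusted p under 0.05 without passing the adjusted threshold, 6 of them higher and 24 lower in Mll-deficient cells, and the remaining 221 had a larger p. Together the 35 with an unadjusted p under 0.05 were 13.7% of the family, against 20.7% of all tested genes. By direction, 8 Zfp genes were higher (3.12%, against 10.5% of all tested genes) and 27 lower (10.5%, against 10.2%). No value was shared between the ranges of the groups for 6 Zfp genes (2.34%), against 6.96% of all tested genes. Zfp593, Zfp771, Zfp239 and Zfp598 lay wholly higher in Mll-deficient samples (4 genes, 1.56%, against 4.42%), and Zfp597 and Zfp30 wholly lower (2 genes, 0.781%, against 2.54%). A difference of at least 1 on the log2 scale in either direction was found for 3 Zfp genes (1.17%, against 3.86%), namely Zfp637, Zfp593 and Zfp467.

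Zfp593 rose. Its human counterpart is ZNF593, and its yeast relative Bud20 acts in the assembly of the large ribosomal subunit. The signal was 778, 672, 734, 1154 and 980.1 in Mll-deficient samples, against 221, 395, 587, 499.9 and 461 in controls. Every Mll-deficient array read above every control array, and control replicate 1 was the lowest. The difference, Mll-deficient minus control on the log2(signal + 16) scale, was 1.01 ± 0.25 (SE, limma adjusted p = 0.0294). A dimmer probe set of the gene, at 57.2 ± 15.6 in Mll-deficient samples and 36.3 ± 14.9 in controls (SD, n = 5 each), had a difference of 0.51 ± 0.26 and did not pass (adjusted p = 0.303 over all probe sets).

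Zfp771 rose as well, and its probe set had a high signal. It read 3398, 3218, 3711, 4603 and 5303 in Mll-deficient samples and 1819, 2343, 3107, 1708 and 2681 in controls. The groups did not overlap, although the highest control lay close under the lowest Mll-deficient array. The difference was 0.80 ± 0.22 (SE, limma adjusted p = 0.0412). A second probe set, at 307 ± 38.0 in Mll-deficient samples and 196 ± 48.5 in controls (SD, n = 5 each), had a difference of 0.63 ± 0.22 (adjusted p = 0.128 over all probe sets), and the gene's other 4 probe sets lay below the filter. The brightest probe set of Zfp593 and both tested probe sets of Zfp771 bear the suffix x, the array maker's mark for probes that may match other transcripts, so signal of other transcripts cannot be told apart there. Zfp553, the gene next to Zfp771, had a difference of -0.08 ± 0.21 (adjusted p = 0.889).

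Zfp467 fell. The protein is known in marrow stromal cells for favouring fat over bone cell fate. Its signal was 205, 439, 224, 284 and 111 in Mll-deficient samples, against 367, 543, 759.5, 534 and 468 in controls. The groups overlapped through Mll-deficient replicate 2, which read above control replicate 1. The difference was -1.12 ± 0.30 (SE, limma adjusted p = 0.0371), the most negative in the family. The chosen probe set bears the suffix s, which marks probes shared by several transcripts, while its other probe sets gave differences of -0.16 ± 0.40 (adjusted p = 0.880 over all probe sets) and -0.27 ± 0.23 (adjusted p = 0.596).

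Zfp217 fell. It belongs to corepressor complexes with the histone demethylase Lsd1, and its human counterpart is amplified in breast cancers. It read 865, 1233, 868, 1553 and 1339.5 in Mll-deficient samples, against 2215, 1391, 2535, 1923 and 2825 in controls. Only control replicate 2 lay within the range of the Mll-deficient arrays. The difference was -0.88 ± 0.24 (SE, limma adjusted p = 0.0382), and the gene had no other probe set.

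Zfp597 fell. Its human counterpart, ZNF597, is an imprinted gene. The signal was 85.6, 116, 73.8, 101 and 44.4 in Mll-deficient samples, against 169, 138, 216, 211 and 119 in controls. The groups did not overlap, with the lowest control just above the highest Mll-deficient array. The difference was -0.92 ± 0.25 (SE, limma adjusted p = 0.0438). Of its other tested probe sets, the brighter was at -0.52 ± 0.22 (unadjusted p = 0.0328, adjusted p = 0.223 over all probe sets) and the dimmer at -0.18 ± 0.23.

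**Figure D1:**
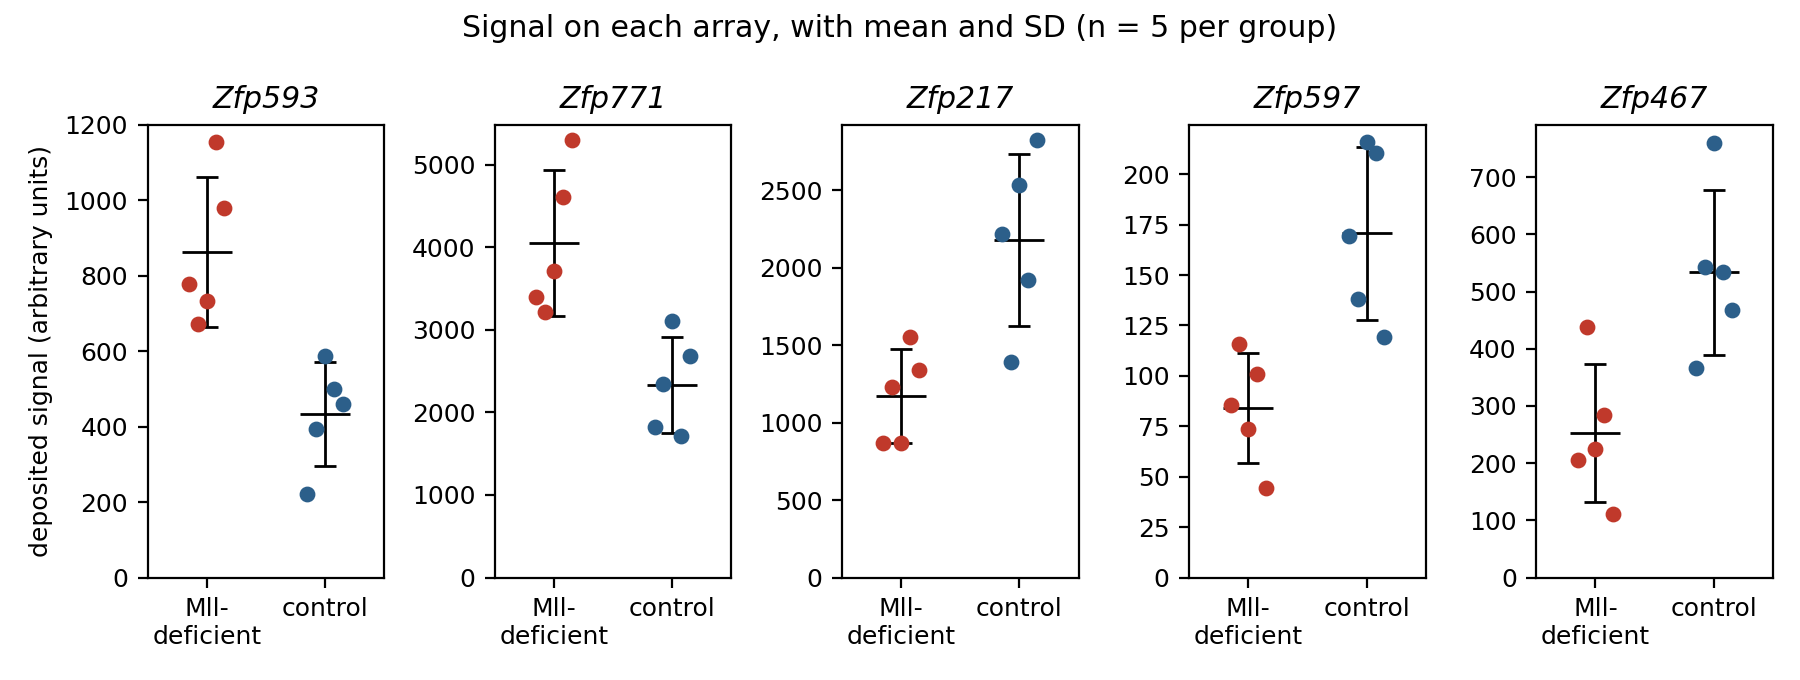
Deposited signal (arbitrary units, each panel from 0 on its own linear scale) of the 5 numbered Zfp genes past the threshold, 1 point per array, with the Mll-deficient arrays left of the controls and the mean and SD of 5 arrays in black. Zfp593, Zfp771 and Zfp597 show no overlap between the groups, while Zfp217 and Zfp467 each overlap through single arrays.

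All 5 calls depended on single arrays. With each array left out in turn, Zfp593 lost its call in 5 of 10 fits, Zfp467 in 6, and Zfp771, Zfp217 and Zfp597 in 7 each. Without Mll-deficient replicate 1, 3 or 5, 0 of 256 passed in limma, while 35, 24 and 26 had an unadjusted p under 0.05. In the same fits 3.62%, 2.89% and 2.52% of all tested genes passed. The count was 2 without Mll-deficient replicate 4 and 1, 3, 2 and 1 without control replicates 1, 2, 3 and 4, and it was 5 without Mll-deficient replicate 2 or control replicate 5. Without the filter on low signals Zfp593 alone passed, with Zfp771, Zfp467, Zfp217 and Zfp597 at adjusted p = 0.0601, 0.0533, 0.0527 and 0.0727. With each array centred on its median, Zfp593 and Zfp771 passed and Zfp467, Zfp217 and Zfp597 did not, at adjusted p = 0.0857, 0.0569 and 0.110. With the 3' to middle ratio as a covariate 14 passed, 3 higher and 11 lower, while 12.8% of all tested genes did.

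Mll reaches unmethylated CpG-rich DNA through its CXXC domain, so promoter sequences of genes past the threshold are shown with each CpG in capitals. The sequences are RefSeq's, for the mouse build GRCm38.p6, and give the 250 bases before the transcription start that lies farthest upstream, 5' to 3' on the gene's strand. Zfp593 had no entry. Zfp771 rose, and the other genes shown fell. Zfp771 lies at chr7:127244276-127244525 (plus strand), Zfp467 at chr6:48445091-48445340 (minus strand), Zfp217 at chr2:170142676-170142925 (minus strand) and Zfp597 at chr16:3872375-3872624 (minus strand).
Zfp771: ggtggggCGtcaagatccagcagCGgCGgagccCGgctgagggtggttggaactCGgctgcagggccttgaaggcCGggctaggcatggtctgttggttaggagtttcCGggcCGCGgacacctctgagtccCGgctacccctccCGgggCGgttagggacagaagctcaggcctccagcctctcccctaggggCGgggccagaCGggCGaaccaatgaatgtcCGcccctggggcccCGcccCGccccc
Zfp467: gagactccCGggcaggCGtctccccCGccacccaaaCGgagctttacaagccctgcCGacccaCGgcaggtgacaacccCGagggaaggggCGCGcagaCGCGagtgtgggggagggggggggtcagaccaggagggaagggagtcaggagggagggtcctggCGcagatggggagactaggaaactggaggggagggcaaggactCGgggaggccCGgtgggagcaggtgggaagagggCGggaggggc
Zfp217: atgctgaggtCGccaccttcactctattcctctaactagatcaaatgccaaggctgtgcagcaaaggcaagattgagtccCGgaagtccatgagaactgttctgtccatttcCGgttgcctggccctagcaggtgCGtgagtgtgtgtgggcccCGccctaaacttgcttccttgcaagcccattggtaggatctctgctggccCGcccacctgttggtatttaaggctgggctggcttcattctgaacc
Zfp597: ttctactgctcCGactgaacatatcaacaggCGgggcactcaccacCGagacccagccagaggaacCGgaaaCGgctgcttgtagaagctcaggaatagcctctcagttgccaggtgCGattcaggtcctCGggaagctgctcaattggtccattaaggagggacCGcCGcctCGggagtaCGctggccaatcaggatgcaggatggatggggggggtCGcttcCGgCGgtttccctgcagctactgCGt
These stretches held 18 CpG for Zfp771, 15 for Zfp467, 6 for Zfp217 and 15 for Zfp597. With 1 gene that rose and 3 that fell, these counts allow no comparison by direction.

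Promoter windows of 300 bases, from 250 before to 50 after the start, were at hand for 211 of the 256 Zfp genes. They held a median of 16 CpG, with a range of 1 to 59, against a median of 20 over the 10165 tested genes with a window. At least 10 CpG were found in 75.4% of the Zfp windows and in 79.0% of those of all tested genes. The 110 Zfp genes at or above their own median of CpG had a median difference of -0.09 (log2), and the 101 under it also had -0.09. CCGGAAG, the core bound by ETS factors, was found on either strand in 21.3% of Zfp windows, 17.8% of windows of tested genes and 9.14% of the 27025 windows of all genes. GATAAG, the core bound by GATA factors, was found in 5.21%, 5.10% and 7.42% of the same windows. AAGATGGC, part of the Yy1 site, was found in 6.64%, 4.61% and 2.87%. GCATGCGC, part of the Nrf1 site, was found in 6.64%, 5.30% and 2.80%, and CACGTG, the E-box, in 8.06%, 10.1% and 7.24%. No motif lies inside another, CCGGAAG, GCATGCGC and CACGTG each hold a CpG, and a match is a description of the letters only. Within the 250 bases printed, Zfp217 and Zfp597 held CCGGAAG, and none of the 4 sequences held the other motifs.

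Most of the family lay near 0, and differences of some size were mostly below it. The median difference of the 256 was -0.09 (log2) and that of all tested genes -0.04, and 164 Zfp genes (64.1%) had a difference below 0, against 53.4% of all tested genes. Differences of at least 0.5 higher in Mll-deficient cells were found for 7 Zfp genes (2.73%), against 11.3% of all tested genes. Differences of at least 0.5 lower were found for 33 (12.9%), against 12.4%. The differences of 144 Zfp genes lay within 0.25 of 0 (56.2%, against 46.0% of all tested genes). The median SE was 0.25 for the Zfp genes and also 0.25 for all tested genes. Under other scalings both shares below 0 were smaller. With quantile normalization 55.9% of the Zfp genes and 49.8% of all tested genes lay below 0, with medians of -0.034 and 0.002. With each array centred on its median it was 54.7% and 47.2%, with medians of -0.027 and 0.025. The part of the scaling in these shares was not tested. On each array, the deviation of every Zfp gene from that gene's mean over the 10 arrays was also taken. The median of these deviations lay between -0.13 and 0.03 (log2) in Mll-deficient samples and between -0.04 and 0.17 in controls. Control replicates 5 and 3 had the highest medians. Without control replicate 5 the median difference was -0.07.

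**Figure D2:**
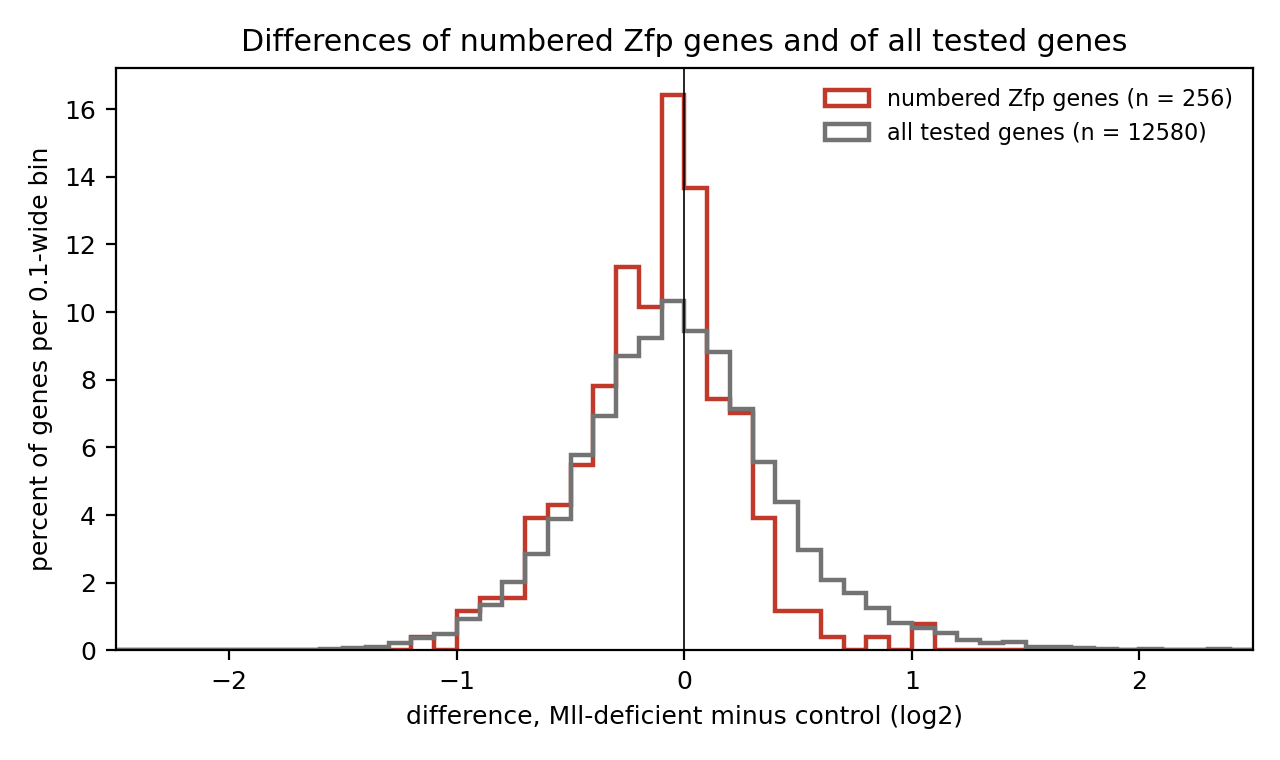
Distribution of the difference, Mll-deficient minus control (log2), for the 256 numbered Zfp genes (red) and all 12580 tested genes (grey), as the percent of genes in each bin of 0.1. Just below 0 the red outline stands mostly above the grey one, below -0.5 they run close together, and between 0.3 and 1 the red outline lies under the grey one.

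Zfp probe sets had low signals, and calls were rarer at low signal among all tested genes. A probe set's signal depends on its probes as well as on the transcript, so these levels are not amounts of RNA. The median level was 6.49 on the log2(signal + 16) scale for Zfp genes and 7.29 for all tested genes. Among genes with a level over 5 and up to 6, 0 of 76 Zfp genes passed in limma, against 1.51% of all tested genes at that level, and between 6 and 7 it was 0 of 68 against 4.09%. From 7 to 8 it was 1 of 55 (1.82%) against 5.70%, and from 8 to 9 it was 1 of 25 (4%) against 8.43%. Above 9 it was 3 of 16 (18.8%), namely Zfp593, Zfp771 and Zfp217, against 9.75% of all tested genes. Without probe sets of suffix s or x, Zfp593 and Zfp771 were not called, so the higher share rests on few genes. The median absolute difference was 0.19 for Zfp genes and 0.30 for all tested genes between 7 and 8, and 0.41 and 0.33 above 9.

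**Figure D3:**
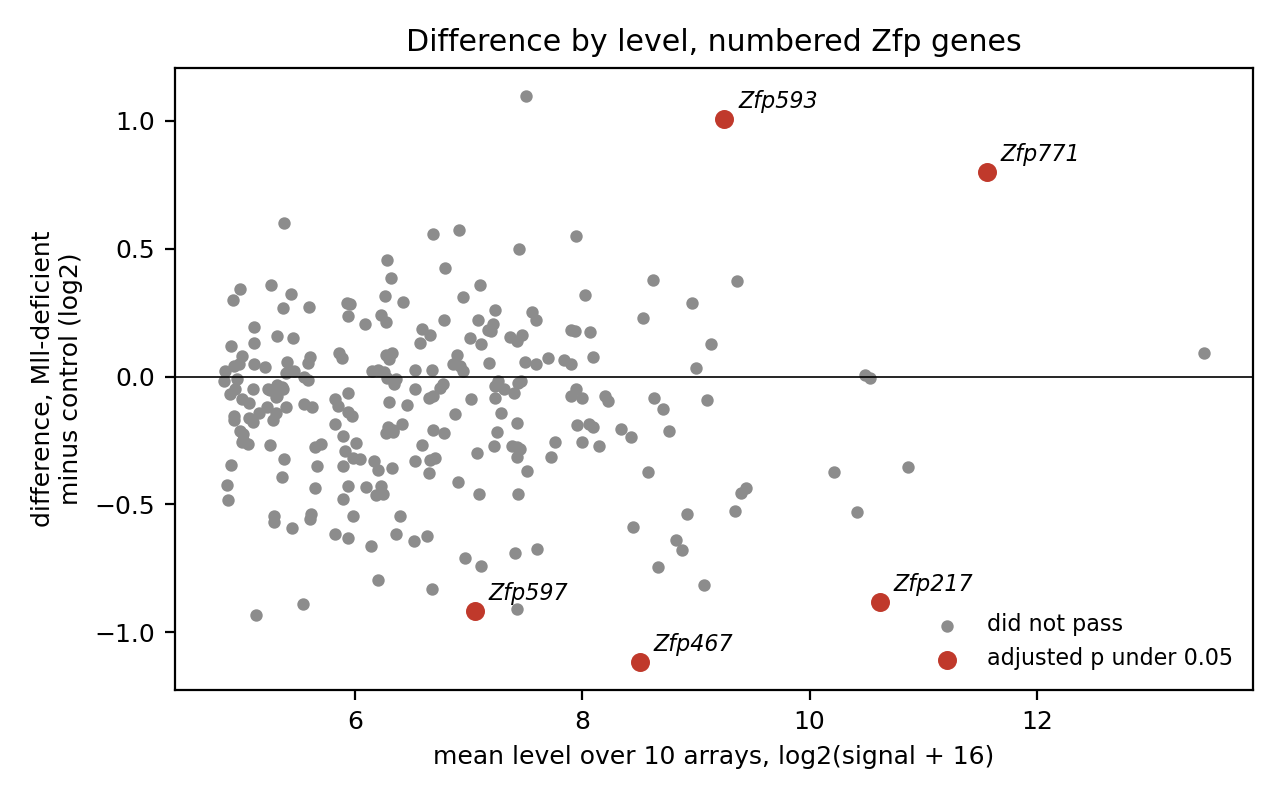
Difference, Mll-deficient minus control (log2), of each of the 256 numbered Zfp genes against its mean level over 10 arrays (log2(signal + 16)), with the 5 genes past the threshold in red. The genes past the threshold lie at levels above 7, and most genes lie within 0.5 of 0.

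Among 11 numbered Zfp genes of RNA, ribosome and protein handling, 1 rose (Zfp593) and 10 did not pass, with a median difference of -0.18. Of all tested genes 3.76% rose and 5.52% passed in either direction, with a median of -0.04. Zfp622, which acts in assembly of the large ribosomal subunit, had the probe set with the highest signal, at 11075, 9176, 12169.6, 12547 and 14209 in Mll-deficient samples and 10219, 8075, 11828, 8639 and 19109.7 in controls. The groups overlapped throughout, control replicate 5 being the highest, and the difference was 0.09 ± 0.23 (limma adjusted p = 0.872). Its chosen probe set also bears the suffix x, and further probe sets of Zfp622 were at 0.17 ± 0.25 and -0.30 ± 0.23. Zfp598, the ubiquitin ligase that marks collided ribosomes, read 441, 451, 436, 410.2 and 432 in Mll-deficient samples, against 344, 388, 308, 356 and 270.4 in controls. The groups did not overlap, but the difference was small, at 0.38 ± 0.18, and did not pass (adjusted p = 0.259). Zfp207, a kinetochore and spindle protein, read 198, 547, 385, 423 and 279 in Mll-deficient samples and 503, 551, 585, 669 and 456 in controls, a difference of -0.64 ± 0.25 (adjusted p = 0.152). Of its 4 other tested probe sets, 3 lay below 0, at -0.36 to -0.49, and 1 at 0.13. Zfp91, a ubiquitin ligase of the NF-kappaB pathway, read 1667 ± 329 in Mll-deficient samples and 2197 ± 755 in controls (SD, n = 5 each), a difference of -0.35 ± 0.24 (adjusted p = 0.429). Zfp106 (0.38), Zfp318 (-0.22), Zfp326 (-0.18), Zfp346 (-0.22), Zfp638 (-0.25), which silences unintegrated retroviral DNA, and Zfp830 (-0.13) had adjusted p between 0.497 and 0.820.

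Among 23 DNA-binding factors and corepressor subunits with a known role, 2 fell (Zfp217 and Zfp467) and 21 did not pass, with a median difference of -0.19. Of all tested genes 1.76% fell and 5.52% passed in either direction, with a median of -0.04. Zfp281, which binds G-rich promoters and is known from pluripotent cells, read 292, 378, 179, 347 and 341 in Mll-deficient samples, against 397, 323, 668, 501 and 805 in controls. The ranges overlapped through control replicate 2, and the difference of -0.75 ± 0.27 did not pass (limma adjusted p = 0.120). Zfp148, its close relative, read 1311, 1139.6, 1076, 1422 and 775 in Mll-deficient samples and 1199, 1789, 1911, 1511 and 1827 in controls (-0.53 ± 0.21, adjusted p = 0.164). All 6 probe sets of Zfp148 had a difference below 0, between -0.53 and -0.23, and none passed. Zfp521, a cofactor known for its expression in haematopoietic stem and progenitor cells, was dim, at 21.7, 31.6, 16.7, 16.4 and 13.6 in Mll-deficient samples and 35.8, 22.9, 46.3, 49.2 and 37.5 in controls. Control replicate 2 lay within the Mll-deficient range, and the difference of -0.59 ± 0.22 did not pass (adjusted p = 0.140), while its other probe set was at -0.34 ± 0.22.

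Zfp384, which is fused to other genes in human acute leukaemias, read 1467 ± 449 in Mll-deficient samples and 1426 ± 221 in controls (SD, n = 5 each), a difference of 0.01 ± 0.21 (limma adjusted p = 0.990). Zfp410, an activator of the chromatin remodeller gene Chd4, read 574 ± 77.5 in Mll-deficient samples and 525 ± 78.4 in controls, a difference of 0.13 ± 0.19 (adjusted p = 0.761). Zfp668 (-0.62) had an unadjusted p under 0.05, and Zfp516 (-0.53), Zfp131 (-0.46), Zfp687 (-0.41) and Zfp219 (-0.38) had larger ones. A dimmer probe set of Zfp668 was at 0.20 ± 0.23. Zfp644 (-0.27), Zfp24 (-0.19) and Zfp462 (-0.14) also lay below 0. The others lay above it, with Zfp592 at 0.36, Zfp110 at 0.29, Zfp296 at 0.18, Zfp335 at 0.16, Zfp369 at 0.13, Zfp532 and Zfp703 at 0.08 each and Zfp64 at 0.05. Zfp42, a marker of pluripotent cells, and Zfp423, a factor of fat precursors, lay below the filter, with signals up to 8.95 and 11.7 on any array.

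Of 5 tested KRAB proteins known for imprints or retroelements, 0 passed in limma, 1 had an unadjusted p under 0.05, and the median was -0.15. The shares over all tested genes were 5.52% and 20.7%, with a median of -0.04, so 5 genes allow no contrast with them. Zfp445, which keeps imprints, read 959.5, 1195, 813, 1096 and 1141 in Mll-deficient samples and 1265, 1071, 1368, 1412 and 1659 in controls. Control replicate 2 lay within the Mll-deficient range (-0.37 ± 0.19, adjusted p = 0.285). The other tested probe sets of Zfp445 were at 0.21 ± 0.37 and, much dimmer, -0.40 ± 0.32. Zfp568, which represses a placental transcript of Igf2, read 197, 152, 203, 199 and 206 in Mll-deficient samples and 144, 121, 161, 109 and 122 in controls. Mll-deficient replicate 2 lay below the highest control, and the difference was 0.50 ± 0.20 (unadjusted p = 0.0233, adjusted p = 0.163). Zfp809, which recognises murine leukaemia virus, was at -0.21 ± 0.22, Zfp932 at 0.06 ± 0.25 and Zfp708 at -0.15 ± 0.23. Zfp57, the other known keeper of imprints, and Zfp819 lay below the filter, with signals up to 23.2 and 24.1 on any array.

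The KRAB corepressor and heterochromatin genes were compared beside the family. Of 25 tested, 0 passed in limma, against 5.52% of all tested genes, and 3 had an unadjusted p under 0.05, against 20.7%. The median difference was 0.14. Trim28, the corepressor that KRAB domains bind, read 7128 ± 975 in Mll-deficient samples and 4944 ± 707 in controls (SD, n = 5 each), a difference of 0.53 ± 0.18 (adjusted p = 0.101). Morc3, a chromatin-associated ATPase, was at -0.69 ± 0.24 (adjusted p = 0.105) and Atf7ip, the partner of Setdb1, at -0.60 ± 0.24 (adjusted p = 0.164). Setdb1 itself was at 0.51 ± 0.31 (adjusted p = 0.366). The probe set of Trim28 bears the suffix x and that of Morc3 the suffix s, so signal of other transcripts cannot be told apart there.

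Of the other 217 numbered Zfp genes, 1 rose (Zfp771), 1 fell (Zfp597) and 215 did not pass, with a median of -0.08. In the same fit 3.76% of all tested genes rose and 1.76% fell, with a median of -0.04. Of the genes that did not pass, Zfp637 had the most positive difference of the family, at 1.10 ± 0.39 (limma adjusted p = 0.118), and Zfp651 came next, at 0.60 ± 0.28 (adjusted p = 0.226). Zfp637 read 440.2, 199.7, 437, 125 and 195 in Mll-deficient samples and 109, 226, 71.2, 177 and 42.4 in controls. Its arrays were widely spread and overlapped. Zfp239, its direct neighbour in the genome, read 150.0, 151, 95.0, 130.1 and 138 in Mll-deficient samples and 76.0, 91.9, 82.0, 82.1 and 84.0 in controls. There the groups did not overlap and the controls were tight, but the difference of 0.57 ± 0.20 did not pass (adjusted p = 0.111). Zfp39 (0.56), Zfp251 (0.55) and Zfp568 (0.50) followed, with adjusted p of 0.175, 0.153 and 0.163.

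On the other side, Zfp30 was the nearest to the threshold of the genes that did not pass. It read 24.0, 27.2, 28.0, 8.46 and 9.57 in Mll-deficient samples and 39.7, 33.5, 102, 35.1 and 46.3 in controls. The groups did not overlap, and control replicate 3 stood far above the other controls (-0.89 ± 0.28, limma adjusted p = 0.0759). Zfp612 (-0.93 ± 0.39), Zfp319 (-0.91 ± 0.41), Zfp397 (-0.83 ± 0.28), Zfp715 (-0.82 ± 0.29) and Zfp654 (-0.80 ± 0.27) had adjusted p between 0.0941 and 0.214. Dimmer tested probe sets of Zfp319 were at -0.11 ± 0.21 and 0.08 ± 0.24, and those of Zfp397 at -0.51 ± 0.24 and -0.30 ± 0.22. For Zfp612, 1 control array read 121 and the rest 7.43 to 33.6, while the Mll-deficient arrays read 0.566 to 21.1. The mean level of Zfp612 in Mll-deficient samples lay below the filter, so the gene was tested only through its control signals. Zfp715 read 416 ± 179.9 in Mll-deficient samples and 734 ± 263 in controls (SD, n = 5 each).

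Numbered Zfp genes often lie in clusters. Of 255 tested members placed in RefSeq's gene table, 128 lay next to another numbered Zfp gene. Their median difference was -0.08, against -0.09 for the 127 without such a neighbour. The threshold was passed by 2 of the 128 and 3 of the 127, against 5.52% of all tested genes. In the run with the most tested members, which holds Zfp14, Zfp30 and Zfp568 among its 11, differences reached from -0.89 to 0.50, with 6 below 0 and 5 above. Zfp429 (-0.69), Zfp458 (-0.57) and Zfp953 (-0.55) of another run lay close together, with Zfp595 of the same run at 0.04. In a further run Zfp994 (-0.64), Zfp942 (-0.54), Zfp943 (-0.44) and Zfp760 (-0.27) lay below 0, Zfp995 at -0.04 and Zfp229 at 0.27. Zfp28, Zfp583 and Zfp667, which share a run, all lay above 0, between 0.12 and 0.43. The genes of these runs were chosen for mention after their values were seen, and none passed the threshold. Neighbouring members can be near-copies, and whether their probes also bind each other's transcripts was not tested.

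**Figure D4:**
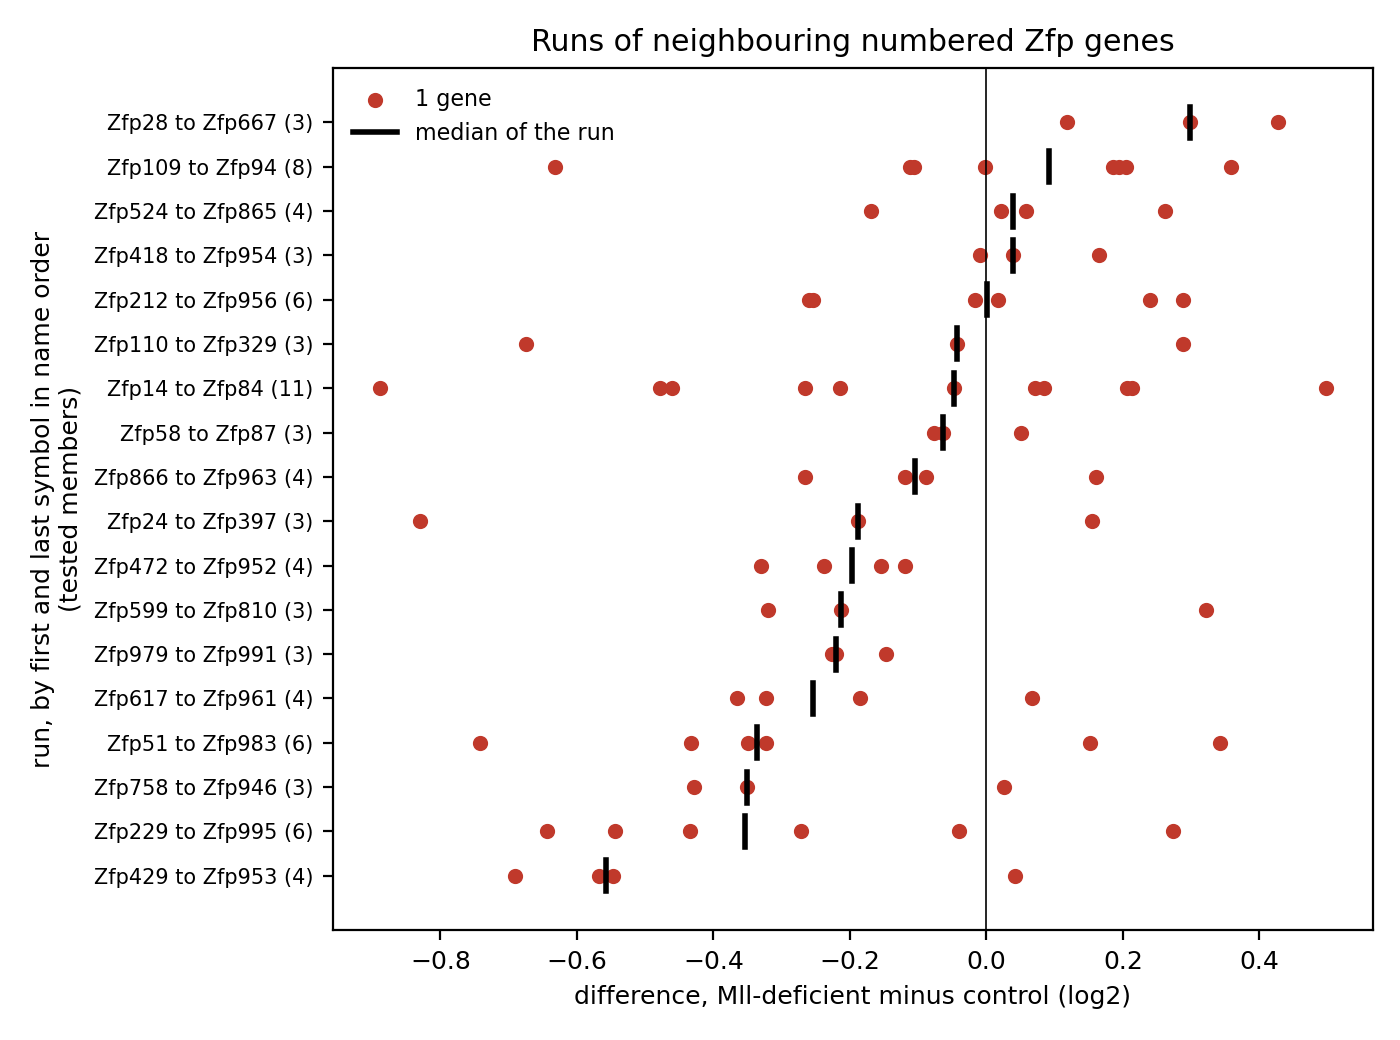
Difference, Mll-deficient minus control (log2), of the members (points) of each run of neighbouring numbered Zfp genes with at least 3 tested members, with the run's median as a black bar and runs ordered by it. Run medians reach from -0.56 to 0.30, and most runs have members on both sides of 0.

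Further probe sets above the filter were at hand for 96 of the 256 genes, and those below it were not compared. These 151 probe sets had the sign of the gene's brightest one in 100 cases, and in 28 of the 33 cases where the brightest differed by at least 0.5 either way. The Pearson correlation of the differences, across probe sets that share the same 10 arrays, was 0.32. In the fit over all 27022 probe sets, where 3.28% passed, 2 of the 256 brightest Zfp probe sets passed (those of Zfp593 and Zfp467). Of the 151 others 1 passed, a probe set of Zfp292, chosen for mention after its values were seen. It read 31.6, 49.4, 52.9, 65.5 and 61.5 in Mll-deficient samples, against 113, 71.1, 144, 140.0 and 161 in controls. The groups did not overlap, and the difference was -1.04 ± 0.25 (SE, limma adjusted p = 0.0283 over all probe sets), while the brightest probe set of Zfp292 was at -0.08 ± 0.21 (adjusted p = 0.890). Another dim one was at -0.70 ± 0.24 (adjusted p = 0.125), and the remaining probe sets of Zfp292 lay between -0.44 and 0.06.

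**Figure D5:**
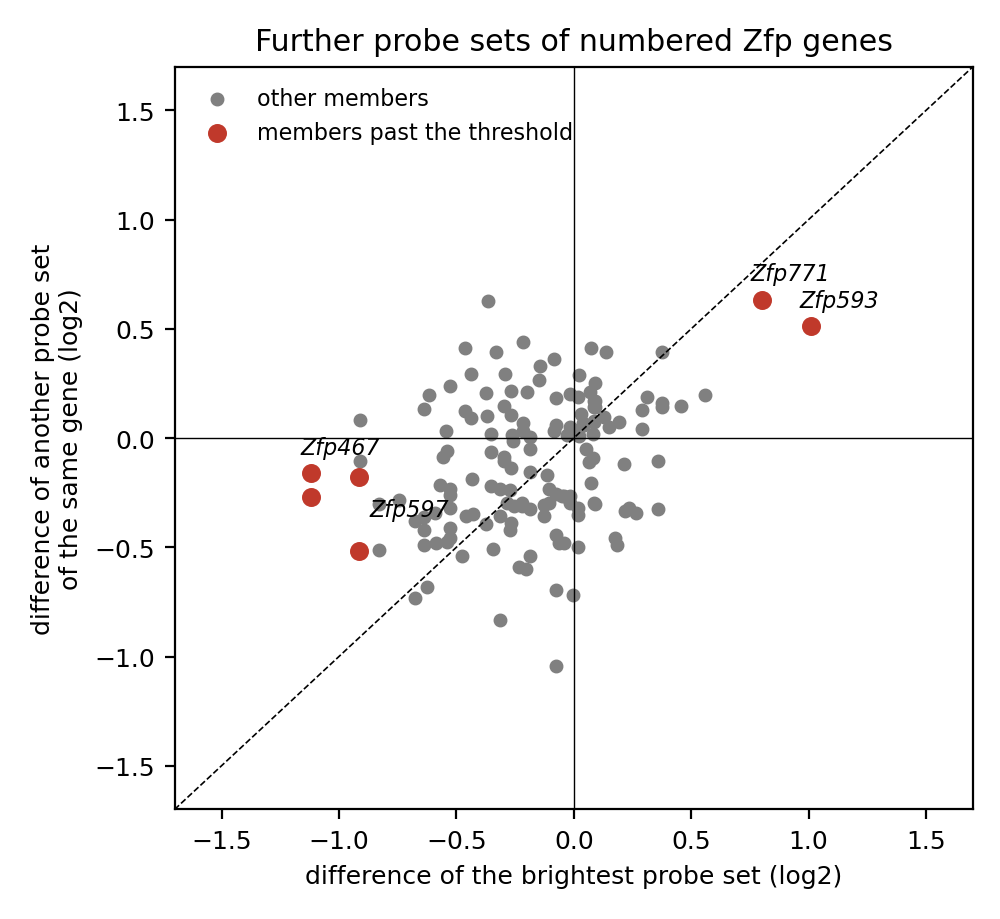
Difference (Mll-deficient minus control, log2) of 151 further tested probe sets against that of the brightest probe set of the same gene, with the genes past the threshold in red and equality as a dashed line. Red points share the sign of the brightest probe set but lie nearer to 0, and the lowest grey point, at -1.04, belongs to Zfp292.

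Other zinc finger families named by symbol were counted in the same fit. Of 38 tested Zbtb genes, which join a BTB domain to zinc fingers, 2 fell (Zbtb20 and Zbtb42) and 0 rose, with a median difference of -0.12, where 1.76% of all tested genes fell, 3.76% rose and the median was -0.04. Of 15 Zscan and Zkscan genes 0 passed in limma and 0 had an unadjusted p under 0.05 (median -0.21). Those shares were 5.52% and 20.7% over all tested genes. Of 13 Zc3h genes, whose fingers are of the RNA-binding CCCH type, 1 fell (Zc3h3, median -0.14). No test of the difference between families was made.

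The 48 numbered Zfp genes below the filter were not tested. Their highest group mean was 16.8 signal units and their highest single array 38.9. Just inside the filter lay Zfp825, Zfp938 and Zfp248, at mean levels of 4.84, 4.85 and 4.87, with differences of -0.02 ± 0.26, 0.02 ± 0.33 and -0.42 ± 0.24. Just outside lay Zfp316, Zfp941 and Zfp78, at 4.81, 4.79 and 4.79. For 6 tested genes 1 group mean lay below the filter, and for 5 untested genes 1 group mean lay above it.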

How the data were processed

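Each probe set has 1 deposited signal intensity on a linear scale, and MAS5 5.0 is named in the submitters' processing notes. The mean of the deposited intensities without the lowest and highest 2% was the same on all 10 arrays, so differences in total RNA per cell are lost. For arrays, their number limits the precision. Of 45101 probe sets, 64 were controls, 34945 had 1 gene symbol in the platform annotation, 932 had several and 9160 were unnamed here. Of those with 1 symbol, 34741 were matched to RefSeq (GRCm38.p6) by Entrez identifier to update the symbol, and 204 kept the older one.

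Values were taken as log2(signal + 16), which understates the changes of dim genes. With 1 probe set for each gene and the 40th percentile filter, 12580 genes were fitted with limma 3.58.1 in R 4.3.3 (lmFit, eBayes with an intensity trend, two-sided, Benjamini-Hochberg over all genes). Probe sets were also fitted one by one, adjusted over 27022. The fit was tested on simulated data. Of 50 genes given a difference of 0.5 (log2) there, 1 was called, and of 50 given a difference of 1, 23 were called. At differences of 2 and 3 the fit called 43 of 50 and 50 of 50. Among the 127 genes called there, 10 had been given no difference. The genes and lists were chosen with earlier results of these data known. Named are the genes past the threshold, the 6 largest differences each way that did not pass, the lists of known roles, the 3 brightest, those nearest the filter and neighbours of called genes. Protein sequences were not used here. Same-numbered arrays of the groups had deviations with correlations between -0.23 and 0.28, so numbers were not taken to pair mice. Alternatives covered offset, scaling, filter, probe sets, symbols, variance prior, array weights, RNA quality, a replicate block, the threshold and each array left out.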

Additional observations from a re-analysis of the deposited data

Results flagged for a closer look

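In 4 of the 112 groups of 5 arrays behind the genes named, 1 array stood far from the other 4, its gap on the log2(signal + 16) scale being more than 0.71 of the group's range on that scale, and chance alone gives about 1 in 20. The values given are signals. For Zfp568, Mll-deficient replicate 2 was low at 152, the next reading 197. For Zfp30, control replicate 3 was high at 102, the next reading 46.3. For Zfp708, control replicate 5 was high at 27.8, the next reading 14.4. For Zfp825, Mll-deficient replicate 4 was low at 1.54, the next reading 13.9. The 4 fell on 4 different arrays.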

How the results depend on the processing

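Of 1270 alternative values for 56 named Zfp genes, 1176 kept their direction and side of the threshold. Most of these genes did not pass in the main fit, so keeping their side mostly meant staying without a call. The 5 genes past the threshold lost their call in 46 of the values, 8 values gained a call and 40 changed sign. The median difference of the Zfp genes stayed below 0 in all 23 alternatives, between -0.13 and -0.03. These include the 10 fits without an array (-0.12 to -0.07). The median of all tested genes was also below 0, except with quantile normalization (0.002) and median centring (0.025). Zfp genes past the threshold numbered 5 (2 higher, 3 lower). They were 2 with median centring (2 higher, 0 lower), 1 without the filter (1 and 0), 2 without probe sets of suffix s or x (0 and 2), 4 without the trend (1 and 3), 14 with the RNA quality covariate (3 and 11), 0 at an adjusted p of 0.01 and 10 at 0.1 (2 and 8). All genes past it were 694, 1610 with that covariate, 175 at 0.01 and 1187 at 0.1. Without 1 array, limma called 0 to 5 Zfp genes, 0 to 2 higher and 0 to 3 lower, and 317 to 875 of all genes. Of all calls 68.2% were higher, and 81.5% with median centring.

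Without probe sets of suffix s or x, Zfp593 was at 0.51 (adjusted p = 0.272) and Zfp467 at -0.16 (adjusted p = 0.872), and with the mean of a gene's probe sets Zfp771 was at 0.21 (adjusted p = 0.431) and Zfp597 at -0.40 (adjusted p = 0.131). The cause of these changes was not tested. With the replicate number as a block, the genes past the threshold numbered 588, of which 4 were Zfp genes (2 higher, 2 lower), and Zfp217 was not among them (adjusted p = 0.0542). Only 1 of 5 numbers correlated best with its own counterpart.

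Changes of sign were found for Zfp genes that did not pass. With the mean of a gene's probe sets, Zfp318 was at 0.0697, Zfp622 at -0.0319, Zfp592 at -0.0239 and Zfp553 at 0.055. Without probe sets of suffix s or x, Zfp622 was at -0.30 and Zfp516 at 0.239. With quantile normalization, Zfp622 was at -0.058, Zfp384 at -0.0289 and Zfp825 at 0.0176. With array weights, Zfp384 was at -0.026, Zfp932 at -0.0515, Zfp825 at 0.0815 and Zfp553 at 0.022. With an offset of 1, Zfp825 was at 0.0317. With median centring, Zfp825 was at 0.0415. With the RNA quality covariate, Zfp938 was at -0.0463. Over the fits without 1 array, the values spanned -0.0211 to 0.289 for Zfp622, -0.287 to 0.00578 for Zfp830, -0.115 to 0.273 for Zfp64, -0.00424 to 0.394 for Zfp335, -0.155 to 0.11 for Zfp384 and -0.0894 to 0.197 for Zfp532. They spanned -0.0539 to 0.169 for Zfp703, -0.125 to 0.196 for Zfp932, -0.134 to 0.162 for Zfp825, -0.212 to 0.219 for Zfp938 and -0.16 to 0.0368 for Zfp553.

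Protein identity pairs of the family were not run. The arrays' number, 5 a group, and signals near background for many Zfp genes limit the precision.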
